A study of Mus musculus with 3 samples.

Results

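Chitinase-like and resistin-like proteins are secreted by myeloid and epithelial cells, and 6 of their genes, Chil1, Chil3, Chil4, Retnla, Retnlb and Retnlg, were described here by their symbols in the expression tables of a mouse colon study. All 6 were listed among 24346 gene symbols, and all 6 reached 1 FPKM (fragments per kilobase of transcript, scaled to all mapped fragments of a library) in at least 1 library, as did 17329 genes in all. The study sequenced RNA of colonic myeloid cells taken from healthy mice of the BALB/c strain, with no treatment and no genetic change named in the labels. There were 3 populations with 1 library each: dendritic cells lacking CD64 (the DC library), CD64+ macrophages, and Gr-1+ CD11b+ cells, labelled as neutrophils and monocytes. The sources used here do not give the age or sex of the mice, or whether RNA of several was pooled. The series title names the ATP-hydrolysing enzyme E-NTPD8 and the receptor P2X4, so these genes were not its stated subject. Since each population has 1 library, differences between them have no replicate check and were not tested.

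Chitinase-like proteins share the fold of chitinases and can bind chitin or related sugars, but they have lost the residue needed to cut it. Chil1 (also known as BRP39) is made by neutrophils, macrophages and epithelium. Chil3 (Ym1) is made by neutrophils, monocytes and macrophages, and rises in macrophages exposed to interleukin-4 or interleukin-13 through the transcription factor STAT6. Chil4 (Ym2) is a close copy of Chil3 best known from inflamed airways. Resistin-like molecules are small, cysteine-rich secreted proteins. Retnla (RELM alpha) is, beside Chil3 and Arg1, a standard transcript of alternatively activated mouse macrophages, Retnlb (RELM beta) is a product of colonic goblet cells that acts on gut bacteria, and Retnlg (RELM gamma) is abundant in neutrophils.

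Chil1 and Retnlg shared 1 order of libraries, with Gr-1+ CD11b+ cells highest and DC lowest. Chil3 and Retnla were highest in macrophages, and their lowest libraries were DC and Gr-1+ CD11b+ cells in turn. Retnla and Retnlg, which are neighbours on chromosome 16, changed places within the libraries: macrophages held 2.92 times as much Retnla as Retnlg, and Gr-1+ CD11b+ cells held 172 times as much Retnlg as Retnla. Retnlb was low in all 3 libraries, and Chil4 could not be told from genes that these cells should not use. Those were 1445 olfactory and vomeronasal receptor genes, whose 95th percentile, called the silent-gene level below, was 0.61 FPKM for DC, 3.23 for macrophages and 9.67 for Gr-1+ CD11b+ cells.

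**Figure D1:**
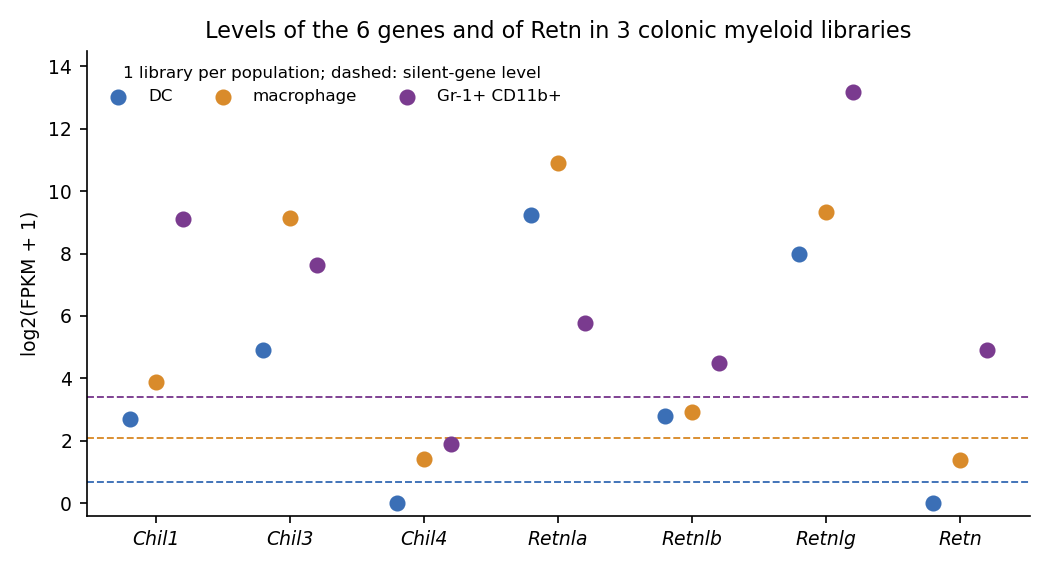
Level of each of the 6 genes and of the related gene Retn as log2(FPKM + 1), with 1 point per library and a dashed line at the silent-gene level of the library of that colour. Chil1 and Retnlg peak in Gr-1+ CD11b+ cells, Chil3 and Retnla in macrophages, and the Chil4 points lie below the lines of their libraries.

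The libraries differed in ways that touch every value. Low FPKM values came in steps of single fragments, and the step on a transcript of 1 kb was about 0.125 FPKM for DC, 0.168 for macrophages and 0.46 for Gr-1+ CD11b+ cells. By these steps DC were sequenced 3.69 times and macrophages 2.74 times as deeply as Gr-1+ CD11b+ cells. The summed macrophage, dendritic cell and neutrophil markers were highest in the library of that label. Monocyte markers, also in the label of Gr-1+ CD11b+ cells, had their lowest sum there, at 958.4 FPKM against 2940 for macrophages and 1505 for DC. These sums were not rescaled. Of the 5 genes, Ly6c2 (319.8 FPKM against 878 for DC) and Ccr2 were lowest there, but Plac8, F13a1 and Vcan were lowest for DC. The size rule given below separated 0 of the 5 between Gr-1+ CD11b+ cells and DC, beside 3.65% and 6.28% of all genes. The median log2 difference of the 5 was 0.008 (Gr-1+ CD11b+ minus DC). By the size rule given below, 10 of 10 macrophage markers were higher in macrophages than in the DC library, beside 2.31% of all genes. They include Fcgr1, which encodes CD64, the protein that separates the labels of these populations. Among DC, 2 of 10 dendritic cell markers, Flt3 and Ccr7, stood higher than in macrophages, beside 1.53% of all genes. The Gr-1+ CD11b+ library exceeded either other one in all 8 neutrophil markers, beside 3.65% of all genes against DC and 1.41% against macrophages. The DC library also carried 9 of 9 B and plasma cell markers above both others. The shares of all genes were 1.53% against macrophages and 6.28% against Gr-1+ CD11b+ cells. Flt3 and Ccr7 were at 39.9 and 1004 FPKM in DC, while Xcr1 and Clec9a, which mark 1 subset of conventional dendritic cells, were at 2.83 and 2.81. Xcr1 was highest in Gr-1+ CD11b+ cells (4.18, under the silent-gene level) and Batf3 in macrophages (42.1, against 20.6 in DC). The other dendritic cell markers were highest in DC. In bulk RNA, fewer cells of a type and less RNA per cell cannot be told apart.

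A gene was counted as higher in a library by a rule of size: a difference of 2 or more on the log2(FPKM + 1) scale, which understates low genes, and 10 FPKM or more in the higher library. Between DC and macrophages, DC were higher in 0 of the 6 genes and macrophages in 1, where all 17329 genes gave 1.53% and 2.31%. Set against DC, 3 of 6 were higher in Gr-1+ CD11b+ cells and 1 in DC, beside 3.65% and 6.28% of all genes. Set against macrophages, 2 of 6 were higher in Gr-1+ CD11b+ cells and 1 in macrophages, beside 1.41% and 3.41%. The background moved with the scaling of the libraries. For Gr-1+ CD11b+ cells against DC, 6.5% were higher in the former and 2.04% in the latter with median-ratio scaling, 11.8% and 1.06% with equal 75th percentiles, and 2.84% and 10.5% with equal FPKM sums. For Gr-1+ CD11b+ cells against macrophages the split was 3.57% and 1.45% with median-ratio scaling and 8.5% and 0.716% with equal 75th percentiles. For DC against macrophages it was 2.4% and 1.52% with equal FPKM sums and 1.03% and 2.8% with equal 75th percentiles. The 3 comparisons share libraries and are not independent of each other.

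**Figure D2:**
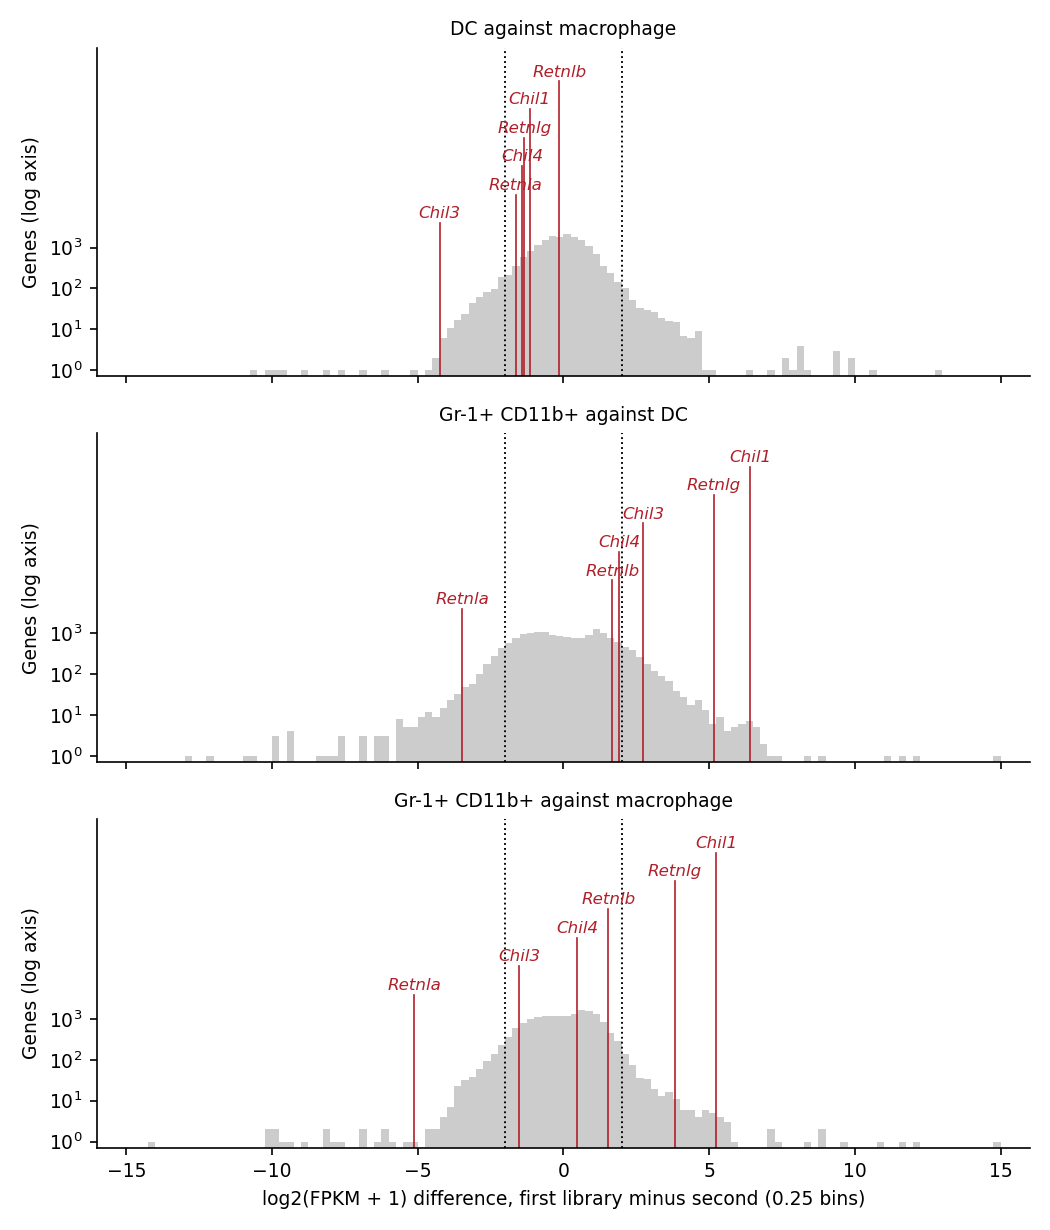
Difference of each of the 6 genes (red lines, with heights that carry no value) among all 17329 genes (grey bars, count on a log axis) in the 3 comparisons, on the log2(FPKM + 1) scale. Dotted lines mark the size limit of 2 in either direction, past which lie Chil3 in the top panel, Retnla, Chil3, Retnlg and Chil1 in the middle one and Retnla, Retnlg and Chil1 in the lowest.

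Chil1 was a transcript of the Gr-1+ CD11b+ library. That library listed it at 549 FPKM, macrophages at 13.6 and DC at 5.53, so 1 library was high and the others were low. Among all 24346 symbols it ranked 174th from the top in Gr-1+ CD11b+ cells, 4687th in macrophages and 7817th in DC. The Gr-1+ CD11b+ level was 40.3 times that of macrophages and 99.4 times that of DC, differences of 5.23 and 6.40 on the log2 scale. The macrophage value was 2.47 times the DC value, a difference of -1.16 (DC minus macrophage) that did not reach the size limit. Both low values exceeded the silent-gene level of their library. Chil1 lies on the plus strand of chromosome 1 from 134182176 to 134190181 (GRCm38), is annotated as protein-coding and has 8 transcripts in GENCODE M21.

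The small Chil1 values outside the Gr-1+ CD11b+ library were as low as those of neutrophil markers. Chil1 in macrophages was 2.48% of its Gr-1+ CD11b+ level, where the 8 neutrophil markers lay between 0% and 7.58% with a median of 3.04%. In DC it was 1.01%, and the markers lay between 0% and 15.3% with a median of 1.06%. Gr-1+ CD11b+ cells held the summed markers at 155800 FPKM, macrophages at 3574 and DC at 1379. The markers S100a8, S100a9, Csf3r, Cxcr2, Mmp8, Ltf and Ngp were listed above 0 in every library, and Camp, a granule peptide gene, was at 0 in DC and macrophages and at 11.3 FPKM in Gr-1+ CD11b+ cells. The part of such cells or their RNA in the Chil1 values of DC and macrophages was not tested.

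The genes whose levels lay nearest to Chil1 over the 3 libraries were Stfa2l1, Cxcr2, H2-Q10, Ngp and Asprv1. Nearness was the largest of the 3 absolute log2 differences from the member, which was 0.22 for Stfa2l1 and 1.05 for Asprv1. Cxcr2, the receptor that draws neutrophils towards CXC chemokines, stood at 7.47 FPKM among DC, 18.4 for macrophages and 497 in the Gr-1+ CD11b+ library. Ngp, a protein of secondary neutrophil granules, was at 3.84, 7.23 and 413. H2-Q10 belongs to a group of near-identical class I genes, so its values of 2.80, 12.7 and 434 are uncertain. Over 3 points such likeness is a description only.

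Chil3 was the chitinase-like gene of the macrophage library. Macrophages listed it at 566 FPKM, Gr-1+ CD11b+ cells at 198 and DC at 28.8, with macrophages highest and DC lowest. Macrophages thus held 19.7 times the DC level, a difference of -4.25 (DC minus macrophage), and 0.075% of all genes lay that far or farther towards macrophages. Gr-1+ CD11b+ cells held 6.89 times the DC level, a difference of 2.74. Macrophages held 2.86 times the Gr-1+ CD11b+ level, and this difference of -1.51 (Gr-1+ CD11b+ minus macrophage) did not reach the size limit. With the alternative scalings and a subtraction of the silent-gene median it lay between -1.52 and -0.40.

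The Chil3 level of Gr-1+ CD11b+ cells stood above what macrophage markers showed there. It was 35.0% of the macrophage level, and each of 10 macrophage markers had a smaller share, between 6.86% and 30.8% with a median of 9.84%. Macrophages held the summed markers at 28790 FPKM, DC at 3427 and Gr-1+ CD11b+ cells at 2716, and none of the 10 was at 0 in any library. In Gr-1+ CD11b+ cells 8 of the 10 exceeded the silent-gene level. Monocyte markers spread more widely. For the 5 of them the Gr-1+ CD11b+ level was 10.4% to 79.0% of the macrophage level, with a median of 33.0%, so Chil3 lay within that range. In DC, Chil3 was 5.08% of the macrophage level, below each of the 10 macrophage markers, whose lowest was 8.17%. The share of each cell type in the Chil3 values was not tested.

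The genes nearest to Chil3 were Fcgr4, Ptgs2, Tlr2, Igsf6 and Rnf149, at largest log2 differences of 0.70 to 0.84. Fcgr4, an activating Fc receptor for IgG, stood at 24.1 FPKM (DC), 347 (macrophages) and 302 (Gr-1+ CD11b+ cells). Ptgs2, the inducible cyclooxygenase that starts prostaglandin synthesis, was at 41.5, 337 and 217 in that order. Tlr2, a receptor for bacterial lipopeptides, was at 30.3, 332 and 297. All 5 were low in DC and high in both other libraries, as Chil3 was, which their choice by nearness favours.

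Chil4 was low beside its copy. DC listed it at 0, macrophages at 1.69 FPKM and Gr-1+ CD11b+ cells at 2.74, and neither of the higher values reached the silent-gene level of its library. Of the 1445 silent genes, 17.8% stood at or above the Chil4 value of macrophages and 33.3% at or above that of Gr-1+ CD11b+ cells. The macrophage value rested on about 15 fragments, with an exact 95% Poisson interval of 0.944 to 2.78 FPKM, and the Gr-1+ CD11b+ value on about 9, with an interval of 1.25 to 5.20. Such intervals cover counting error only, because fragments of amplified cDNA are not separate molecules. These intervals overlap, so a Chil4 difference between macrophages and Gr-1+ CD11b+ cells was not detectable at this depth. The 0 of the deeper DC library allows up to 0.299 FPKM by the same exact interval, below both others, but all 3 values lay under the silent-gene level of their own library.

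Chil3 and Chil4 are hard to separate by sequence. They lie on the minus strand of chromosome 3 (GRCm38), Chil3 from 106147554 to 106167564 and Chil4 from 106201490 to 106219507, with 33.92 kb between them. Their longest transcripts are 1539 nt each and identical at 94.4% of 1538 aligned bases, with a shared run of 136 bases. Of all 50-base words of either transcript, 18.5% occur in the other. Fragments from such stretches can be assigned to either gene, so the Chil4 values beside those of Chil3 are uncertain. The assignment itself was not tested.

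The regions before the 2 start sites were as alike, and are shown because Chil3 was well above the silent-gene level in every library and Chil4 below it. The RefSeq promoter windows of 300 bases (GRCm38.p6) were identical at 92.6% of 271 aligned bases. The bases upstream of both the RefSeq and GENCODE starts are printed 5′ to 3′ on the minus strand, for Chil3 chr3:106167565-106167814 and for Chil4 chr3:106219508-106219729. Capitals mark the one match, in Chil4, to a C/EBP-like word, which was TTGC, any 2 bases and AA on either strand. C/EBP proteins are transcription factors of granulocytes and macrophages.

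Chil3: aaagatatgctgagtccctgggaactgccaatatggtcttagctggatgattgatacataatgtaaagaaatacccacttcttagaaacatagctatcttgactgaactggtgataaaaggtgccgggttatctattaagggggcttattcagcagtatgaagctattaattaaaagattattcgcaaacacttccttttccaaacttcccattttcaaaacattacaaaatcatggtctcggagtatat
Chil4: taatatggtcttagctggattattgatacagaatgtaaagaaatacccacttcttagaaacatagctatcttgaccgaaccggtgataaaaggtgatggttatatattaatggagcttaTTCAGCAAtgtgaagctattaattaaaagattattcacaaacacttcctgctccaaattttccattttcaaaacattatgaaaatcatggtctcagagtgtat

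The match in Chil4 lay at -131 to -124 from the RefSeq start, and 10.8% of 32851 promoter windows held such a word. A STAT6-like word (TTC, any 4 bases, GAA, held by 6.95% of windows) and a PU.1-like word (GAGGAA, held by 28.3%) matched neither window, nor that of Chil1, which held none of the 3. These matches describe letters in the windows and nothing about binding.

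Retnla was the most abundant of the 6 genes in macrophages and in DC. Macrophages listed it at 1899 FPKM, DC at 606 and Gr-1+ CD11b+ cells at 53.4, with the last far below the others. It ranked 48th of all symbols in macrophages, 172nd in DC and 1332nd in Gr-1+ CD11b+ cells. Macrophages held 35.5 times the Gr-1+ CD11b+ level and DC 11.3 times, differences of -5.13 and -3.48 (Gr-1+ CD11b+ minus the other). Of all genes, 0.115% lay that far towards macrophages. The difference of -1.65 between DC and macrophages, a ratio of 3.13, did not reach the size limit.

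The DC level of Retnla stood above that of macrophage markers, and its Gr-1+ CD11b+ level below them. In DC it was 31.9% of the macrophage level, above all 10 macrophage markers, which lay between 8.17% and 17.5%. Gr-1+ CD11b+ cells held 2.81% of it, below all 10, which lay between 6.86% and 30.8%. Of these 10, 8 exceeded the silent-gene level there. The 6.86% was that of Trem2, which was under that level at 5.92 FPKM. Chil3 was placed the other way round in both libraries. The sum of the eosinophil markers was 203.7 FPKM for macrophages, 176.7 for DC and 46.85 for Gr-1+ CD11b+ cells, with most of it from Ear2 (142.8) in macrophages and from Prg2 (107.7) in DC. Of the 9, DC held 6 above the silent-gene level, macrophages 5 and Gr-1+ CD11b+ cells 2, and Epx, the eosinophil peroxidase gene, was listed at 0 throughout. The others did not share 1 order. Ear2, Ccr3 and Alox15 were highest in macrophages, Prg2 and Il5ra in DC, and Siglecf, Ear1 and Ear6 in Gr-1+ CD11b+ cells. Siglecf was at 2.16 FPKM for DC, 6.03 for macrophages and 13.7 for Gr-1+ CD11b+ cells, where Ear1 and Ear6 were below the silent-gene level. The B and plasma cell markers of the DC library summed to 22760 FPKM, against 1176 in macrophages, and their part in its Retnla value was not tested.

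**Figure D3:**
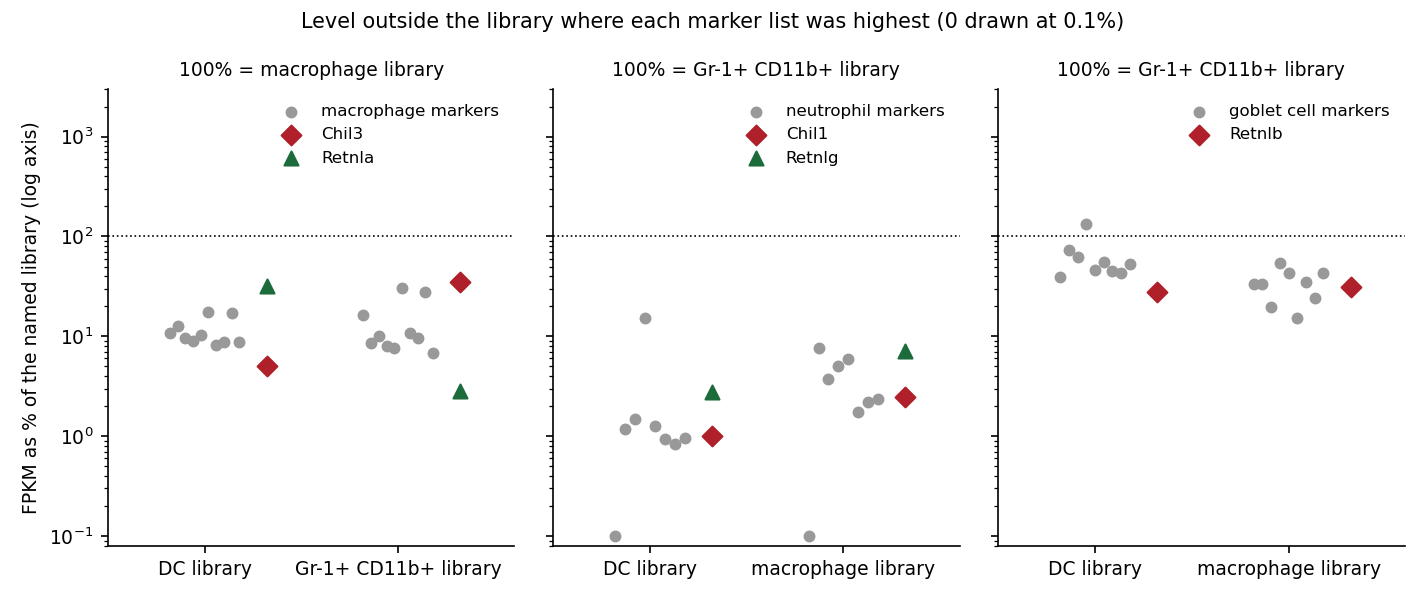
FPKM in a library as a percentage of the library named above each panel (log axis, with 0 drawn at 0.1%), for marker genes (grey, 1 point per gene) and for the genes described here (coloured). Retnla lies above the macrophage markers in DC and below them in Gr-1+ CD11b+ cells, Chil3 the reverse, and Chil1 lies among the neutrophil markers.

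The genes nearest to Retnla were less near than those of Chil3, at largest log2 differences of 1.05 to 1.52. They were H2-DMa and H2-DMb1, which together load peptides onto MHC class II, the lysosomal protease gene Ctsh, the monocyte chemokine gene Ccl7 and Cd83, a surface protein of mature antigen-presenting cells. DC held H2-DMb1 at 585 FPKM, macrophages at 1557 and Gr-1+ CD11b+ cells at 129. H2-DMa was at 521, 915 and 77.8. All 5 were lowest in Gr-1+ CD11b+ cells and highest in macrophages, an order of Retnla that their choice by nearness favours.

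Retnlg had the highest value of the 6 genes in any library. Gr-1+ CD11b+ cells listed it at 9198 FPKM, where it was the 9th most abundant of all symbols, macrophages at 649.8 and DC at 254.9. Gr-1+ CD11b+ cells held 14.2 times the macrophage level and 36.1 times the DC level, differences of 3.82 and 5.17. The DC value was lower than the macrophage value by a difference of -1.35, which did not reach the size limit. Even so, it ranked 207th in macrophages and 418th in DC.

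Those lower Retnlg values were at the upper end of what neutrophil markers showed. Macrophages held 7.06% of the Gr-1+ CD11b+ level of Retnlg, above 7 of the 8 neutrophil markers, and DC held 2.77%, also above 7 of 8. Camp, the marker at 0 in both, was among those below. The part of neutrophil RNA in these values was not tested.

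The genes nearest to Retnlg were Slpi, Cebpb, G0s2, Il1r2 and Mrgpra6, at largest log2 differences of 1.26 to 1.53. Slpi, an inhibitor of neutrophil proteases, stood at 612 FPKM for DC, 665 for macrophages and 4823 for Gr-1+ CD11b+ cells. G0s2, an inhibitor of lipolysis, was at 95.7, 324 and 8790. Il1r2, a decoy receptor for interleukin-1, was at 699, 1532 and 5731. These 5 were highest in Gr-1+ CD11b+ cells and lowest in DC, the order of Retnlg, which their choice by nearness favours.

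The family's make-up turned over between libraries, a measure that no scaling of a library can change. Of the summed FPKM of Retnla, Retnlb and Retnlg, DC had 69.9% as Retnla, macrophages 74.3% and Gr-1+ CD11b+ cells 0.576%. Retnlg made up 29.4%, 25.4% and 99.2%. The sums were 866.9, 2556 and 9272 FPKM. Of the summed chitinase-like genes, 34.29, 581.6 and 750.3 FPKM, Chil3 made up 83.9%, 97.4% and 26.4% and Chil1 16.1%, 2.34% and 73.2%. Chil3 thus exceeded Chil1 41.6-fold in macrophages and 5.21-fold in DC, and Chil1 exceeded Chil3 2.77-fold in Gr-1+ CD11b+ cells.

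**Figure D4:**
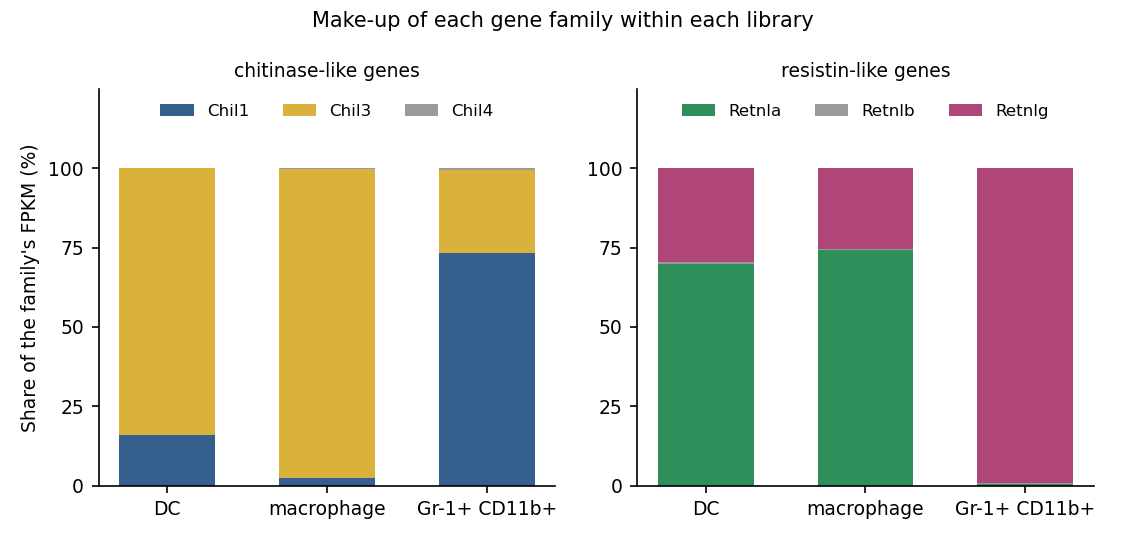
Share of each gene in the summed FPKM of its family (%, bars from 0), by library. Chil3 gives way to Chil1, and Retnla to Retnlg, in the Gr-1+ CD11b+ library, where Chil1 and Retnlg make up 73.2% and 99.2% of their families.

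Retnlb, Retnla and Retnlg lie in this order on the plus strand of chromosome 16 (GRCm38), at 48816856 to 48818892, 48842551 to 48844461 and 48872621 to 48874496. The gaps are 23.66 and 28.16 kb, and each gene has 1 annotated transcript, of 696, 599 and 593 nt. The transcripts of Retnla and Retnlg are identical at 84.5% of 587 aligned bases, but share no 50-base word. Their upstream regions are shown because the ratio of these neighbours turned between libraries. Both are printed 5′ to 3′ on the plus strand (RefSeq windows, GRCm38.p6), Retnla at chr16:48842359-48842550 and Retnlg at chr16:48872358-48872607, with matches to the STAT6-like, C/EBP-like and PU.1-like words in capitals. Retnlb is not among the RefSeq windows used.

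Retnla: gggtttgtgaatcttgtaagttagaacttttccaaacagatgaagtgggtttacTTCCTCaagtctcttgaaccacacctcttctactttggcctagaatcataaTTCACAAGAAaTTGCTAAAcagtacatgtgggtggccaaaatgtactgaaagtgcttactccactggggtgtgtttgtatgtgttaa
Retnlg: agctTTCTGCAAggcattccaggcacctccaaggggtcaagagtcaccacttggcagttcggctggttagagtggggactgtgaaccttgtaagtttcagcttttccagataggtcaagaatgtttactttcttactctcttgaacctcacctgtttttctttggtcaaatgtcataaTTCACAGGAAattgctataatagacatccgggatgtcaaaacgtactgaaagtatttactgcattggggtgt

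Both windows held a STAT6-like and a C/EBP-like word, as 0.84% of all windows did. In Retnla they lay side by side, at -145 to -136 and -134 to -127 from the RefSeq start, with a PU.1-like word at -196 to -191 on the other strand. The STAT6 and C/EBP sites of the Retnla promoter are known to mediate its response to interleukin-4. In Retnlg the STAT6-like word lay at -72 to -63, and the C/EBP-like word apart from it, at -246 to -239. The RefSeq starts of the 2 genes lie differently from their GENCODE starts, so these positions cannot be compared between the genes. In the printed sequences both STAT6-like words stand in the same stretch, directly after the same run of letters. The Retnlg letters that follow this word do not form a C/EBP-like word. The RefSeq windows were identical at 79.1% of 225 aligned bases. None of the 6 matches in the windows of the members overlapped another.

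Retnlb was low everywhere. DC listed it at 5.95 FPKM, macrophages at 6.65 and Gr-1+ CD11b+ cells at 21.3, with the last the highest. These values rested on at most about 33, 28 and 32 fragments, with counting intervals at least as wide as 4.09 to 8.35, 4.42 to 9.61 and 14.6 to 30 FPKM. Each of the 3 was above its library's silent-gene level. The differences of Gr-1+ CD11b+ cells from DC and macrophages, 1.68 and 1.54, missed the size limit. They were 2.39 and 2.09 with median-ratio scaling and 2.99 and 2.60 with equal 75th percentiles, and then passed it. The difference of -0.14 between DC and macrophages turned to 0.20 with equal FPKM sums.

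Transcripts of goblet cells, the known source of Retnlb in the colon, were present in all 3 libraries, and their sum was highest in the same one. Gr-1+ CD11b+ cells held the 9 goblet cell markers at a sum of 846.6 FPKM, DC at 395.5 and macrophages at 290.6, with none at 0. Muc2 alone was highest in DC, at 13.5 FPKM against 10.04 in Gr-1+ CD11b+ cells. Of the 9, 9 exceeded the silent-gene level in DC and 7 in each other library. Retnlb in macrophages was 31.3% of its Gr-1+ CD11b+ level, where the goblet markers lay between 15.2% and 53.9% (median 33.4%), and in DC it was 27.9%, below all 9, which lay between 39.6% and 134%. The 12 colon epithelial markers summed to 1628 FPKM in Gr-1+ CD11b+ cells, and to 757.6 and 468.8 in DC and macrophages. The part of epithelial RNA in the Retnlb values was not tested. The genes nearest to Retnlb were Ccnb1, Atad2, Tmem71, Arhgap24 and Akr1c12, at largest log2 differences of 0.19 to 0.31 and at levels of 5.59 to 22.9 FPKM, among which many genes fall.

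Of the genes related to the 6, Retn stood out. Retn, which encodes resistin, a hormone of mouse fat cells, had 28.95 FPKM in the Gr-1+ CD11b+ library, 1.58 in macrophages and 0 in DC. It alone of 6 expressed relatives passed the size rule there against each other library, beside 3.65% of all genes against DC and 1.41% against macrophages. Retn was in the order of Retnlg, whose Gr-1+ CD11b+ level was 318 times higher. Retn in macrophages was below the silent-gene level. The active chitinase genes were barely detected. Chit1, chitotriosidase, was at 0.206 FPKM for DC, 0 for macrophages and 1.48 for Gr-1+ CD11b+ cells, and Chia1, acidic mammalian chitinase, at 0.0841, 0.111 and 0.602, all below the silent-gene level. Chil6 was likewise below it, at 0.0757, 1.80 and 4.07. Ctbs, a lysosomal enzyme that trims chitobiose from glycans, was highest in macrophages, at 11.1 FPKM against 2.84 and 4.71. Chid1 was at 10.4, 10.3 and 4.32, and Ovgp1, whose known site is the oviduct, at 1.48, 0.756 and 3.07. Chil5 was not analysed here.

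Of 5 expressed genes for reported binding partners, the size rule separated 0 between DC and macrophages as deposited. The shares of all genes were 1.53% (DC higher) and 2.31% (macrophages higher), so a count of 0 among 5 does not set them apart. With median-ratio scaling, and with equal 75th percentiles, 1 of 5 was higher in macrophages, beside 2.61% and 2.8% of all genes. Lgals3 and Tlr4 were near the limit as deposited, at -1.87 and -1.97 (DC minus macrophage). Il13ra2, a receptor for interleukin-13 and Chil1, was at 0.0565 FPKM (DC), 0.299 (macrophages) and 0.202 (Gr-1+ CD11b+ cells), all below the silent-gene level, whereas Tmem219, its co-receptor for Chil1, was at 80.8, 81.9 and 41.2. Lgals3, galectin-3, was at 334, 1229 and 554. Cd44, a hyaluronan receptor, was at 57.5, 152 and 252, and Tlr4, the lipopolysaccharide receptor and a reported receptor of resistin, at 2.03, 10.9 and 27.7. Cd44 and Tlr4 were the 2 of 5 expressed partners higher in Gr-1+ CD11b+ cells than in DC by the size rule, where 1 was with equal FPKM sums and 4 were with equal 75th percentiles. The shares of all genes were 3.65%, 2.84% and 11.8% in that order. Cap1, a reported resistin receptor, was at 30.2, 37.5 and 71.7. Ptgdr2 and Ager did not reach 1 FPKM.

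Genes of the interleukin-4 and interleukin-13 pathway, which induces Chil3 and Retnla in macrophages, went in both directions. Of 14 such genes at 1 FPKM or more, 1 was higher in DC and 2 in macrophages by the size rule, beside 1.53% and 2.31% of all genes. Against Gr-1+ CD11b+ cells, 2 were higher and 2 lower in DC (all genes 6.28% and 3.65%), and 1 was higher and 0 lower in macrophages (3.41% and 1.41%). These splits turned with the scaling. With equal 75th percentiles, 1 was higher and 3 lower in DC (1.06% and 11.8%), and 0 were higher and 2 lower in macrophages (0.716% and 8.5%). With the silent-gene median subtracted, 3 were higher and 0 lower in macrophages (5.26% and 1.37%). The median difference of the 14 genes was 0.03 between DC and macrophages (DC minus macrophage) beside -0.05 for all genes. It was 0.41 with equal FPKM sums and -0.27 with equal 75th percentiles. Stat6 stood at 83.9 FPKM for DC, 71.4 for macrophages and 115 for Gr-1+ CD11b+ cells. Il13ra1, a subunit of the receptor for both cytokines, was at 13.6, 58.8 and 132, and Il2rg, the shared chain of the interleukin-4 receptor, at 756, 546 and 103. Cebpb, a C/EBP factor, was at 247, 1719 and 3912. Il4ra, chosen after its values were seen, was at 96.2, 109 and 105, and Il13 was listed at 0 in all 3. Il4, likewise chosen, had 14.4 FPKM in the macrophage library, 6.03 for DC and 3.11 for Gr-1+ CD11b+ cells.

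Several other transcripts of alternative activation were, like Retnla, higher in macrophages than in Gr-1+ CD11b+ cells. Of 17 at 1 FPKM or more, 8 were higher in macrophages than in Gr-1+ CD11b+ cells and 0 lower, beside 3.41% and 1.41% of all genes. Their median difference was -1.98 (Gr-1+ CD11b+ minus macrophage) beside 0.10 for all genes. The count higher in macrophages was 4 with median-ratio scaling and 2 with equal 75th percentiles, beside 1.45% and 0.716% of all genes. Against DC, 6 of 17 were higher in macrophages and 0 lower (median -1.67), beside 2.31% and 1.53% of all genes. With equal FPKM sums 3 were higher and 1 lower, beside 1.52% and 2.4% of all genes. Mgl2, a galactose-binding lectin, stood at 40.2 FPKM for DC, 156 for macrophages and 10.03 for Gr-1+ CD11b+ cells. Ccl17, a chemokine for CCR4-bearing T cells, was at 79.8, 49.6 and 7.89. The list was not uniform: Tgm2, a transglutaminase, was at 95.2, 459 and 708, and Cish, an inhibitor of cytokine signalling, at 34.1, 67.5 and 79.6. Chosen after their values were seen, Arg1, arginase, was at 8.11, 21.6 and 3.43, and Mrc1, the mannose receptor, at 7.70, 41.7 and 3.55. Macrophages held the highest level of both, at far lower levels than Chil3 or Retnla.

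Neutrophil genes were high where Chil1 and Retnlg were. Of 16 genes of tertiary granules and mature neutrophils, 15 were higher there than in DC and 14 than in macrophages by the size rule. The shares of all genes were 3.65% and 1.41%. Median differences of the 16 were 6.05 and 4.15, beside 0.01 and 0.10 for all genes. The highest were S100a8 and S100a9, the calprotectin subunits, at 98580 and 54906 FPKM, followed by the antiprotease-like gene Wfdc17 at 27626 and by G0s2. Of 10 secondary granule genes, 6 were higher than in DC and 6 than in macrophages, beside the same shares. Another 2 were lower than in macrophages (0 with equal 75th percentiles), beside 3.41% (0.716%) of all genes. Lcn2, lipocalin-2, was at 43.1 FPKM for DC, 90.99 for macrophages and 3579 for Gr-1+ CD11b+ cells, and Hp, haptoglobin, at 39.9, 409 and 3029. Lyz2, lysozyme, was highest in macrophages, at 2580, 29604 and 5060, which is also the order of Chil3 there. Primary granule genes of early precursors were near 0. In Gr-1+ CD11b+ cells Mpo was at 0.169 FPKM, Ctsg at 0.5003, Ms4a3 at 0 and Prtn3 at 4.69, all below the silent-gene level, and Prtn3 was at 37.4 in macrophages.

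Monocyte genes were often, like Chil3, highest in macrophages. Of 14 such genes, the macrophage library had 8 higher than the DC library and 0 lower, beside 2.31% and 1.53% of all genes. The median was -2.43 (DC minus macrophage), beside -0.05 for all genes. Against Gr-1+ CD11b+ cells, 5 were higher in macrophages and 0 lower, beside 3.41% and 1.41% of all genes. The median was -1.44 (Gr-1+ CD11b+ minus macrophage), beside 0.10 for all genes. With equal 75th percentiles 3 were higher and 1 lower, beside 0.716% and 8.5% of all genes. DC held Plac8 at 582 FPKM, macrophages at 1771 and Gr-1+ CD11b+ cells at 585, and Csf1r, the receptor of the macrophage growth factor, at 76.5, 714 and 153. Ly6c2, a surface protein of blood monocytes, was at 878, 782 and 319.8, and Nr4a1, a nuclear receptor of patrolling monocytes, at 459, 290.4 and 364.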

How the data were processed

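RNA of 3 sorted colonic myeloid populations was measured, with 1 library each. Per the labels' protocols, RNeasy columns gave total RNA, SMART-Seq HT full-length cDNA and Nextera the libraries. What the authors deposited is 1 FPKM value per symbol and library. The submitters' processing notes name Cufflinks 2.2.1, TopHat2 2.0.13, SAMtools 0.1.19 and Bowtie2 2.2.3, without saying what each did, and the build mm10. Which annotation and filters were used is not given in the sources used here.

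Values were used as deposited, with a pseudocount of 1 before log2. The 6 genes and 18 context and marker lists (171 genes, 168 found) were chosen with earlier results of these data known. The text names all 6 genes, their relatives and reported binding partners, up to 4 genes of each other context list by highest FPKM, and the 5 nearest genes of each member at 10 FPKM or more, without antigen receptor segments or symbols that are codes alone. Il4, Il4ra, Il13, Arg1, Mrc1 and the markers Camp, Epx, Ear2, Prg2, Flt3, Ccr7, Xcr1 and Clec9a were named after their values were seen. So were the markers Siglecf, Ear1, Ear6, Ccr3, Alox15, Il5ra, Ccr2, F13a1, Vcan, Muc2, Batf3 and Trem2. Fcgr1 was named because it encodes CD64. Depth steps used genes with a single transcript over 800 nt, where 72.2% to 76.8% of low values lay within 0.2 of a whole fragment. For transcripts under 800 nt fragment numbers are upper estimates. Transcripts and coordinates came from GENCODE M21 (GRCm38, called mm10 elsewhere), and promoter windows (250 bases before to 50 after a start, found for 5 of the 6 genes) from RefSeq. Protein sequences were not used here, so transcripts were aligned instead. Whether the size rule holds against variation between replicate libraries was not tested, because each population has 1 library. Python 3.11.15, NumPy 2.4.6, pandas 2.3.3, SciPy 1.17.1, Biopython 1.88 and matplotlib 3.10.9 were used.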

Additional observations from a re-analysis of the deposited data

How the results depend on the processing

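The alternatives were pseudocounts of 0.1 and 10, log2 limits of 1 and 3, floors of 1 and 30 FPKM, scaling to equal sums, median ratios or equal 75th percentiles, and subtraction of the median silent-gene level. The highest library stayed the same for all 6 genes under the 3 scalings and the subtraction. Of 180 differences of single genes under an alternative, 168 kept their direction and their side of the size rule, 10 newly passed it, 1 no longer passed and 1 that never passed changed sign. The log2 limits and floors changed the size rule only, so no direction could change under them. With a log2 limit of 1, 4 of the 6 genes differed between DC and macrophages, and 5 between macrophages and Gr-1+ CD11b+ cells. At that limit 5.59% of all genes were higher in DC and 5.69% lower than in macrophages. Gr-1+ CD11b+ cells set against macrophages gave 4.72% higher and 15.1% lower. With a log2 limit of 3, Chil3 no longer passed between Gr-1+ CD11b+ cells and DC. Scaling to equal 75th percentiles moved the median of all genes by 1.12 towards Gr-1+ CD11b+ cells against DC, where Chil1 ranged from 6.06 to 7.73, Retnlg from 4.80 to 6.58 and Retnla from -3.85 to -2.08 over the scalings and the subtraction. No paired analysis was possible because each population has 1 library. Depth limits Chil4 and Retnlb most, and the library with the highest silent-gene level, Gr-1+ CD11b+, is also the shallowest.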
